A study of Mus musculus with 14 samples.

Results

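The nuclear genes that encode the subunits of oxidative phosphorylation were followed across 14 mouse libraries in 7 groups of 2. The genes were taken by symbol: Nduf genes of complex I (assembly factors excluded), Sdha to Sdhd of complex II, Uqcr genes of complex III, Cox4 to Cox8 genes of complex IV, and Atp5 genes of complex V, without pseudogenes. This gave 84 genes of the 24345 symbols in the RNA-seq tables and of the 24394 in the immunoprecipitation tables. Of these, 37 belonged to complex I, 4 to complex II, 8 to complex III, 18 to complex IV and 17 to complex V. Each of the 84 genes had 1 locus in the tables. The rule also took Cox7a2l, whose product helps to join respiratory complexes, and Atp5s and Atp5sl, now named Dmac2l and Dmac2, whose products are not classical subunits. Ndufa4 and Ndufa4l2 are counted under complex I by their symbols, although the Ndufa4 protein is a subunit of complex IV. The rule did not take Ndufab1, Cyc1 or Cycs, and none of 15 mitochondrially encoded genes had a row in the tables used here.

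Steady-state RNA was sequenced in untreated wild-type embryonic stem cells (mESC), in untreated wild-type primary embryonic fibroblasts (MEF), in stem cells with a knockdown of Dppa5a (Dppa5a_KD) and in wild-type control stem cells for that knockdown (KD_control). Dppa5a is an RNA-binding protein of pluripotent cells. RNA immunoprecipitation was done in stem cells that overexpress 3Flag-Dppa5a, with IgG (IgG_RIP) or with a Flag antibody (Flag_RIP) from untreated cells, and again with the Flag antibody from cells under the treatment HU (HU_Flag_RIP), an abbreviation the labels do not spell out. The stem cell line was described as home made and was kept on inactivated fibroblasts with LIF, then grown for a pair of passages on gelatin before harvest. The labels do not give the method of the knockdown, what the control cells carried, or the origin of the replicates. The p-values therefore measure only the spread between these libraries, which may be technical.

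Oxidative phosphorylation is the chain by which mitochondria turn the oxidation of fuels into ATP. Complexes I and II feed electrons from NADH and succinate into the chain, complex III passes them to cytochrome c, complex IV reduces oxygen, and complex V uses the proton gradient to make ATP. Nearly all subunits are encoded in the nucleus, and several of complex IV exist as alternative genes used in different tissues or oxygen conditions. Pluripotent cells are known for high glycolysis together with an active respiratory chain.

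The promoters of these genes are known for sites of the factors NRF1, the ETS factor GABPA and YY1, so stretches from 9 of them are shown, ending 30 bases past the annotated start. All 84 genes were matched to RefSeq, 81 by current and 3 by older symbol, and 69 of them had a promoter window of 250 bases before to 50 after a start (RefSeq, build GRCm38.p6). These 3 short motifs were searched on both strands: GCGCATGCG for NRF1, CCGGAAG for ETS factors and AAGATGGCG for YY1. The ETS motif ends in the letters AAG with which the YY1 motif begins, so these motifs can overlap. The NRF1 motif was in the windows of 8 of the 69 genes (11.6%) and of 1.95% of all 27025 genes with windows. The ETS motif was in 16 of the 69 genes (23.2%), against 9.93% of all genes, and the YY1 motif in 8 (11.6%), against 1.64%. In all, 27 of the 69 genes (39.1%) held at least 1 of these motifs, as did 12.7% of all genes. A match describes the letters only, and says nothing of binding. The stretches of Cox6a1 (chr5:115348929-115349128, reverse strand) and Uqcr11 (chr10:80406792-80406991, reverse) are shown because they carry both an NRF1 and an ETS motif, and that of Atp5g2 (chr15:102671018-102671217, reverse) because this gene changed its share among its copies. Atp5j (chr16:84834947-84835146, reverse) has a YY1 and an ETS motif, and Atp5sl (chr7:25619323-25619522, forward) a YY1 motif in the windows of both of its annotated starts, of which 1 is shown. The palindrome GCGCATGCGC in Atp5g2 and Cox6a1 counts once on each strand. Sdhd (chr9:50603820-50604019, reverse) is shown for its call in the immunoprecipitates. The pair Cox6b1 (chr7:30626085-30626284, reverse) and Cox6b2 (chr7:4753065-4753264, reverse) encode alternative forms of 1 subunit, and Cox7a1 (chr7:30184001-30184200, forward) had the greatest fold difference of the 82 genes tested in the comparison of control stem cells with fibroblasts. Motif letters are in capitals.
Cox6a1: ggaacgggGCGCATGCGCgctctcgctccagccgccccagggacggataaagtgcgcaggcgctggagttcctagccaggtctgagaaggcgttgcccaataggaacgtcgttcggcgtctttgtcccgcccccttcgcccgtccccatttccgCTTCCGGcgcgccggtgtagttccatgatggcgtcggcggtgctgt
Uqcr11: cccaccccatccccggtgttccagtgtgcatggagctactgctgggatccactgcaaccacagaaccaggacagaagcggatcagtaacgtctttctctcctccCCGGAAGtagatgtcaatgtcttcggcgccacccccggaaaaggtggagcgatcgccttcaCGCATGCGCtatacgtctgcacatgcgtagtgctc
Atp5g2: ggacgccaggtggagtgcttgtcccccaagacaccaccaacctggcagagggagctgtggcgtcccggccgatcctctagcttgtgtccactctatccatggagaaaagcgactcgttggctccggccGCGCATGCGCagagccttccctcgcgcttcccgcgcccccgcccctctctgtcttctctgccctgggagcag
Atp5j: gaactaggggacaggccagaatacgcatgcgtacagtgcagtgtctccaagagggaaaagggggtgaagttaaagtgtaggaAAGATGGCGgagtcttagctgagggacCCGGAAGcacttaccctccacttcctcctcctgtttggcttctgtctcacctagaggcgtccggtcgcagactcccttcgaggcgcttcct
Atp5sl: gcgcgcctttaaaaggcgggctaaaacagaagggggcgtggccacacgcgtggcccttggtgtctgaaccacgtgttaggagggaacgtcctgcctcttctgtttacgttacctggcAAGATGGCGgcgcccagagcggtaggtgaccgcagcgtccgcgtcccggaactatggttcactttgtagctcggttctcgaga
Sdhd: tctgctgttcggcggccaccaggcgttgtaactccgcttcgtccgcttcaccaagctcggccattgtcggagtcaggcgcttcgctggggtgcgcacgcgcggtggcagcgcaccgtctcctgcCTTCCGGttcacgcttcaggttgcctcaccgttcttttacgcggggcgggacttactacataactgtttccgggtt
Cox6b1: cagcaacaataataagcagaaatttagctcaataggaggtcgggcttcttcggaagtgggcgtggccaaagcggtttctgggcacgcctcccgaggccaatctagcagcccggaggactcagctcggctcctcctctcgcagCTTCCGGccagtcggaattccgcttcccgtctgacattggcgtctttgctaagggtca
Cox6b2: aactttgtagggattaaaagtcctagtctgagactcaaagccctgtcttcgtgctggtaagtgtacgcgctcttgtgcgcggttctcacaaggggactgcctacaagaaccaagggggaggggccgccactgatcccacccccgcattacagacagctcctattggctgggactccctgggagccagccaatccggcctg
Cox7a1: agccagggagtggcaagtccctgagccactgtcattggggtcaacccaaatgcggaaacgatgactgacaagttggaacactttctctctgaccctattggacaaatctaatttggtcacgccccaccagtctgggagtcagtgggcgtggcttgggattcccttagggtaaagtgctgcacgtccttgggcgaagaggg
Of the complex IV genes shown, Cox6b2 and Cox7a1 had none of the 3 motifs in their stretch. Cox6b1 had the ETS motif, and Cox6a1 the NRF1 and ETS motifs. Most complex IV genes held none: 3 of the 13 with a window (23.1%) had any of the motifs. Cox7a2, the partner of Cox7a1, had none either.

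Libraries of the same group differed in a way that bears on every result for these genes. Dppa5a itself had a level of 101 and 358 FPKM in Dppa5a_KD, far below the 5126 and 5417 of its control. The mESC libraries had 1485 and 1818 FPKM of it, and the MEF libraries 0 and 0.0871. In the immunoprecipitates, Dppa5a took 335 and 403 CPM (here scaled to all deposited counts) of the IgG_RIP libraries, 134 and 135 of the Flag_RIP libraries, and 88.9 and 94.5 of the HU_Flag_RIP libraries, so its share was lower with the Flag antibody than with IgG. The 10 pluripotency markers had a median of 161 to 233 FPKM in the 6 stem cell libraries and at most 0.0466 in MEF, and the 10 fibroblast markers a median of 231 and 212 FPKM in MEF and at most 0.519 in stem cells. In MEF the 10 macrophage markers summed to 44.5 and 46.1 FPKM and the 10 muscle markers to 45.4 and 34.9. In the stem cell libraries these sums were 4.84 to 19.6 and 4.02 to 14.7. The part of other cell types in the results was not tested. In bulk RNA, fewer cells of a type and less RNA per cell cannot be told apart.

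The subunit genes differed between replicates of mESC and of Dppa5a_KD as a group. In Dppa5a_KD, 79 of the 82 genes whose mean reached 1 FPKM read higher in replicate 2 than in replicate 1, with a median difference of 0.96 (log2 of FPKM + 1). In mESC, 71 of 82 did, with a median of 0.67, while the median was -0.16 in MEF and 0.03 in KD_control. Most of these genes have short transcripts: by the effective length implied by the deposited confidence bounds, 62 of the 82 fell in the shortest of 10 equal length classes of 12338 genes. The bounds also widen where reads match several gene copies, so this length is approximate. The difference followed length for other genes too. In Dppa5a_KD the 1172 other genes of the shortest class had a median difference of 0.58, the 62 subunit genes in it 1.07, and the longest class -0.32. In mESC these medians were 0.51, 0.80 and -0.16. Cytosolic ribosomal protein genes, also short, differed by a median of 0.82 in Dppa5a_KD and 0.51 in mESC. Replicate 1 of each of these groups is therefore named beside the results that rest on it. The part of length in the differences between groups was not tested beyond the fits with the length trend removed.

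**Figure D1:**
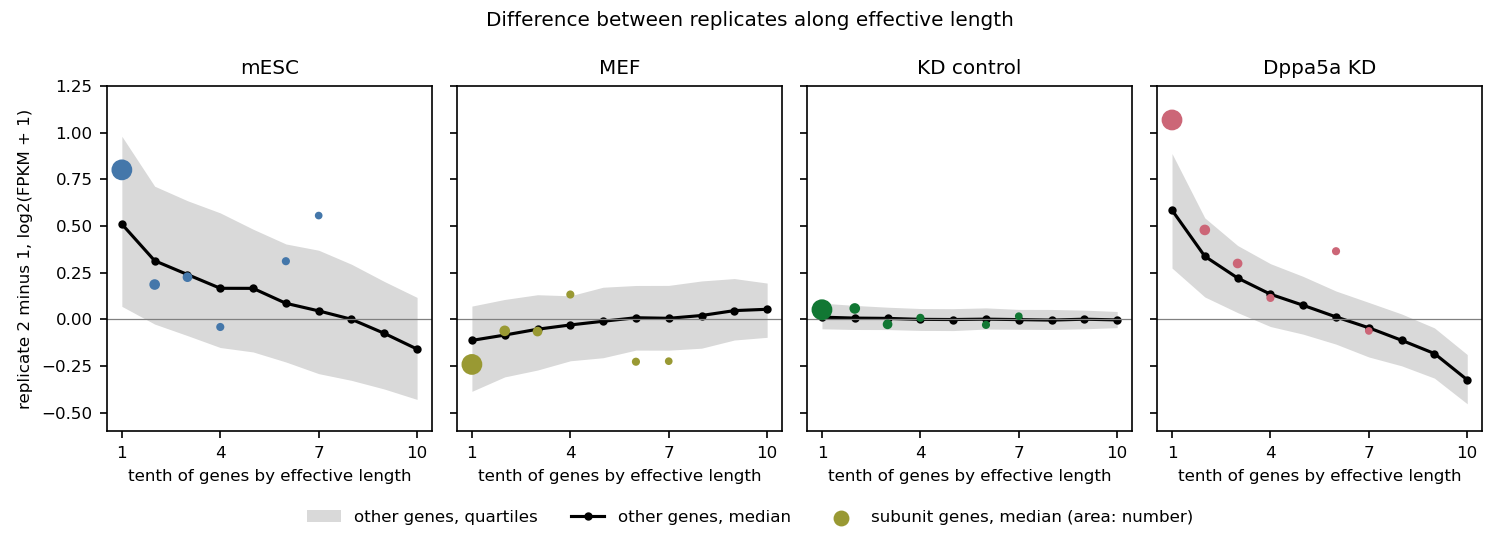
Median difference between replicate 2 and replicate 1 (log2 of FPKM + 1, vertical axis) for 10 classes of genes by effective length (horizontal axis, 1 is shortest), in the 4 RNA-seq groups; black, other genes with quartiles in grey; coloured points, subunit genes, with area growing with their number. In mESC and Dppa5a_KD the shortest genes read higher in replicate 2, and the 62 subunit genes there (medians 0.80 and 1.07) lie above the median of other genes, while KD_control lies near 0 throughout.

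The subunit genes made up a sizeable part of the RNA in every library. Of all FPKM they made up 3.65% and 3.72% in KD_control, 2.43% and 3.63% in Dppa5a_KD, 2.54% and 3.19% for mESC and 2.48% and 2.26% for MEF. Both KD_control libraries stood above every other library, and replicate 1 of Dppa5a_KD stood at the level of MEF. The median FPKM over the 84 genes was 155 in both KD_control libraries, 95.2 and 164 for Dppa5a_KD, 85.1 and 137 for mESC, and 105 and 95.9 for MEF.

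Levels per transcript length differed among the complexes. In KD_control, the median FPKM was 113 and 127 over complex I, 151 and 157 over complex II, 323 and 334 over complex III, 184 and 176 over complex IV, and 413 and 443 over complex V. Complex V, which holds its catalytic subunits in several copies per enzyme, also had the highest median in the other groups, between 194 and 446. Its catalytic beta subunit Atp5b had the highest mean of all 84 genes in each RNA-seq group: 1497 ± 7.89 FPKM for KD_control, 1237 ± 212 for Dppa5a_KD, 843 ± 112 for mESC and 569 ± 1.3 for MEF (SD, n = 2). The complex IV genes spanned the widest range, from a level listed at 0 for Cox8b, a heart and muscle form, in all 8 libraries to 1283 and 1310 FPKM for Cox7c in KD_control. Cox6a2, another muscle form, did not pass 1.32 FPKM in any library, and it and Cox8b were the 2 genes not tested in any RNA-seq comparison.

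**Figure D2:**
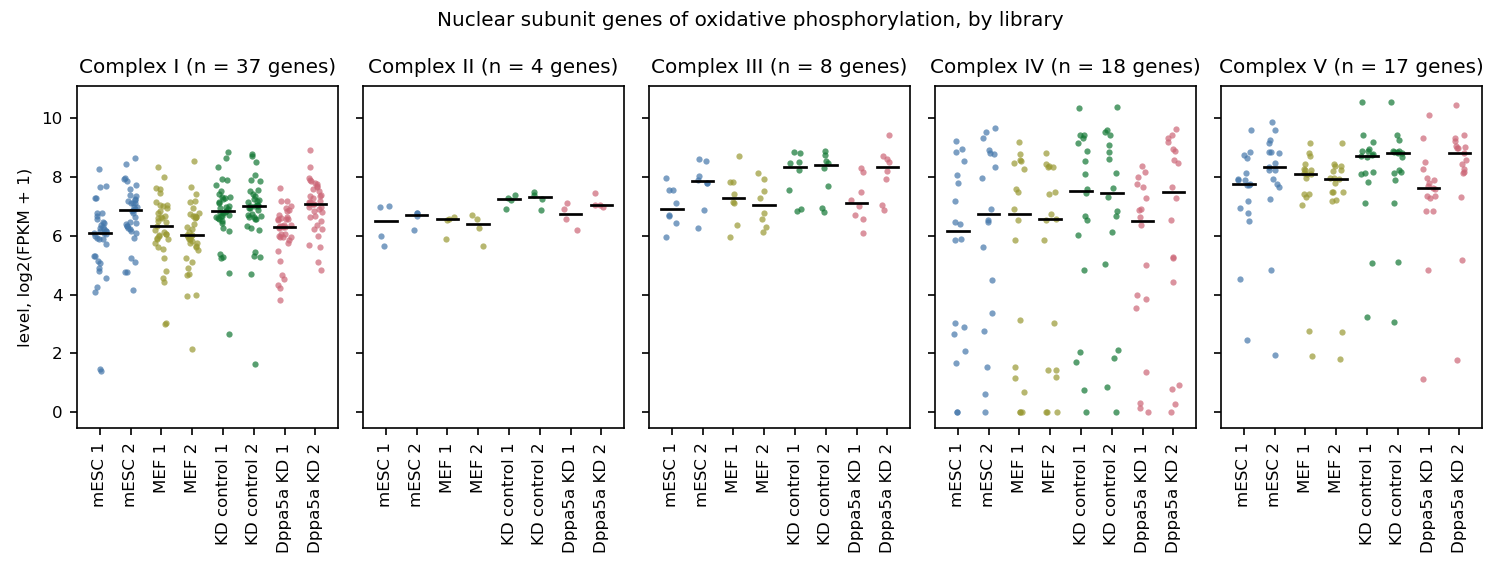
Level of each subunit gene (log2 of FPKM + 1, vertical axis) in each of 8 RNA-seq libraries (horizontal axis), in 1 panel per complex; points are genes, and black lines are medians over the genes. Complex V sits highest, complex IV has genes at or near 0, and replicate 1 of mESC and of Dppa5a_KD has a lower median than its partner in all 5 complexes.

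Alternative subunit genes were used in different proportions in the RNA-seq groups, also between mESC and KD_control, which are both wild-type stem cells. These proportions compare a gene with its paralogue in the same library, so a scale factor of the library cancels, though a difference in transcript length does not. Groups of 2 against 2 cannot give an exact permutation p under 0.333, so shares are given as values.

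Cox7a1, the contractile-tissue form of subunit VIIa, was a major form in the control stem cells. It read 100 and 112 FPKM for KD_control, 14.7 and 37.1 for Dppa5a_KD, 6.38 and 48.0 for mESC, and 1.22 and 1.72 for MEF. As a share of Cox7a1 and Cox7a2 together this was 36.5% and 41.5% in KD_control, 15.3% and 15.5% in Dppa5a_KD, 7.04% and 28.8% in mESC, and 1.01% and 1.59% in MEF. The knockdown libraries differed in the level of Cox7a1 but had nearly the same share, whereas the mESC libraries differed in both. Cox7a1 is also a gene of brown fat and muscle. The 5 brown adipocyte markers summed to 16.9 and 18.3 FPKM in the control, 5.49 and 7.28 in the knockdown, 1.82 and 2.71 for mESC and 1.17 and 1.21 for MEF. KD_control had the highest and MEF the lowest values of both. Most of the brown adipocyte sum was Cidea (15.03 and 16.36 FPKM in the control), while Ucp1 did not pass 0.880, Adipoq 0.0796 and Ppargc1a 0.153 FPKM in any library. The sum of the 10 muscle markers was highest in MEF, where Cox7a1 was lowest. Most of that sum was Des (22.8 and 17.4 FPKM) and Acta1 (17.6 and 14.1). Tnnt1 was higher in KD_control (5.57 and 4.79) than in MEF (1.57 and 0.974), as were Myod1 and Ckm at lower levels. The remaining muscle markers had higher means in MEF. The 5 endothelial markers summed to 61.6 and 59.7 FPKM in the control, 28.7 and 30.3 in the knockdown, 15.93 and 25.003 for mESC and 1.72 and 1.66 for MEF, nearly all of it Pecam1, which stem cells also express; Cdh5 did not pass 0.632 FPKM.

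Cox4i2, a form of subunit IV induced by low oxygen in some tissues, read 27.8 and 31.7 FPKM in KD_control, 10.54 and 20.35 in Dppa5a_KD, 3.25 and 5.77 in mESC, and 1.93 and 1.73 in MEF. Its share of Cox4i1 and Cox4i2 was 4.70% and 5.57% in KD_control, 3.09% and 2.89% in Dppa5a_KD, 0.702% and 0.712% in mESC, and 0.443% and 0.526% in MEF. The 4 groups did not overlap in this share. The locus of Cox4i2 overlaps that of Bcl2l1 in the tables, and strand was not given, so reads of the pair could be mixed. Bcl2l1 read 16.3 and 16.8 FPKM in KD_control and 32.9 and 30.1 in Dppa5a_KD, higher after the knockdown, where Cox4i2 was lower. It read 12.8 and 20.9 FPKM in mESC and 26.4 and 23.4 in MEF. A mixing of these reads was not tested.

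Cox6b2, the testis form of subunit VIb, read 64.7 and 68.9 FPKM in KD_control, 13.4 and 38.0 in Dppa5a_KD, 7.13 and 21.6 in mESC, and 7.72 and 7.12 in MEF. Its share of Cox6b1 and Cox6b2 was 15.0% and 15.2% in KD_control, 10.3% and 9.03% in Dppa5a_KD, 4.74% and 6.34% in mESC, and 2.05% and 2.02% in MEF. The order of the groups in this share was the same as for Cox4i2, again without overlap.

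Ndufa4l2, a paralogue of the complex IV subunit gene Ndufa4 known from hypoxic cells, read 140 and 145 FPKM in KD_control, 34.0 and 74.5 in Dppa5a_KD, 1.65 and 36.5 in mESC, and 7.06 and 3.46 in MEF. Its share of Ndufa4 and Ndufa4l2 was 25.9% and 25.1% in KD_control, 14.7% and 13.6% in Dppa5a_KD, 0.542% and 8.44% in mESC, and 2.13% and 0.934% in MEF. The mESC libraries spanned the values of MEF. Ndufa4l2 overlaps Shmt2, a serine metabolism gene, which read 415 and 414 FPKM in KD_control and 469 and 591 in Dppa5a_KD, higher after the knockdown, where Ndufa4l2 was lower. Shmt2 read 62.8 and 104.7 FPKM in mESC and 111.4 and 84.73 in MEF. Like Ndufa4l2, it was thus higher in KD_control than in mESC and MEF. Reads of this pair could also be mixed, which was not tested.

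Cox7b2, another testis form, had its highest level in mESC. It read 5.37 and 9.48 FPKM in mESC, 2.29 and 3.33 in KD_control, 0.117 and 0.226 in Dppa5a_KD, and was listed at 0 in both MEF libraries. Its share of Cox7b and Cox7b2 was 8.52% and 9.34% in mESC, 2.43% and 3.17% in KD_control, and 0.374% and 0.244% in Dppa5a_KD. Here mESC stood above KD_control, in the opposite order to the 4 genes above. Of 5 germ cell markers, the summed level was 73.9 and 40.1 FPKM in mESC, 17.2 and 17.7 in KD_control, 10.9 and 9.76 in Dppa5a_KD, and 0.620 and 1.36 in MEF. In mESC most of this sum was Dazl (47.38 and 25.99 FPKM) and Sycp3 (22.08 and 10.54). Ddx4 went the other way, with 4.418 and 3.564 FPKM in mESC and 6.999 and 6.624 in KD_control. Prm1 was listed at 0 in every library, and Tnp1 did not pass 0.1436 FPKM. Within mESC the sum was higher in replicate 1, while Cox7b2 was higher in replicate 2. The part of germ cell markers in the Cox7b2 level was not tested.

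The genes Atp5g1, Atp5g2 and Atp5g3 encode the same mature c subunit of the ATP synthase rotor. Atp5g2 made up 47.1% and 48.5% of their summed FPKM in KD_control, against 35.04% and 36.58% in Dppa5a_KD, 31.2% and 34.5% in mESC, and 36.3% and 40.4% in MEF. Atp5g1 made up 18.2% and 18.9% in KD_control and 22.04% and 21.54% in Dppa5a_KD, and Atp5g3 made up 34.7% and 32.6%, and 42.9% and 41.9%. KD_control was thus the group in which Atp5g2 was the most abundant of the 3 in both libraries, and in Dppa5a_KD Atp5g3 was.

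**Figure D3:**
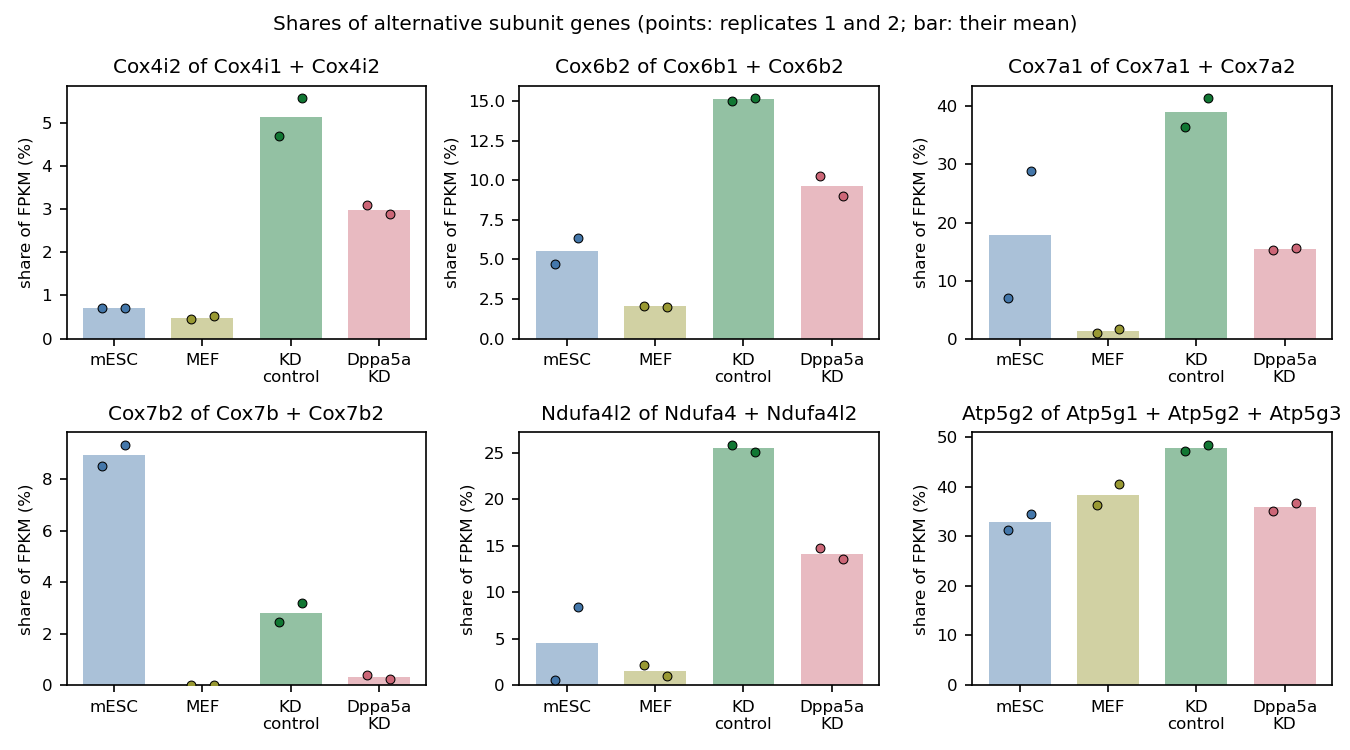
Share of the named gene in the summed FPKM of its paralogues (percent, vertical axis) in the 4 RNA-seq groups; points are replicates 1 and 2, and bars their mean. The Dppa5a_KD pair lies close together and below KD_control in all 6 panels, and mESC spreads widely for Cox7a1 and Ndufa4l2.

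After knockdown of Dppa5a, 7 of 82 tested subunit genes changed at an adjusted p under 0.05 (limma, Benjamini-Hochberg over 12345 genes). Ndufs1 and Ndufs5 rose, and Cox7a1, Cox7b2, Cox8c, Ndufa4l2 and Atp5s fell. Among all genes tested, 13.6% rose and 23.8% fell, so both counts lay below the background. The median SE was 0.34 over the subunit genes and 0.13 over all genes, so the low counts do not show that these genes were stable. Without overlap between the groups, 2 subunit genes were higher and 30 lower, where 30.83% and 44.79% of all genes were. The median log2 fold change was -0.36 over the subunit genes and -0.11 over all genes, with 67 of the 82 below 0. In the shortest length class it was -0.43 over the 62 subunit genes and -0.31 over all 1180 genes tested. With the length trend removed, the median was -0.05 over the subunit genes and 0.008 over all genes. As deposited, the median of the subunit genes depended on which knockdown library was used: it was 0.08 without Dppa5a_KD 1 and -0.81 without Dppa5a_KD 2. In the first case 36 subunit genes passed higher and 25 lower (29.7% and 39.9% of all genes), and in the second 2 higher and 75 lower (30.2% and 46.1%), with the lone library assumed to vary like the control pair. Without KD_control 1, and without KD_control 2, 13 and 9 were lower (14.6% and 14.46% of all genes) and 1 was higher in each case (5.171% and 5.072%).

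Of the alternative genes described above, Cox7a1, Ndufa4l2 and Cox7b2 fell. Cox7a1 fell by 2.13 on the log2 scale (SE 0.43, adjusted p = 0.021, limma), or 4.38-fold lower. It fell by 1.49 without Dppa5a_KD 1 and by 2.77 without Dppa5a_KD 2, and missed the threshold with all 8 RNA-seq libraries in 1 fit (adjusted p = 0.085). Ndufa4l2 fell by 1.48 (SE 0.38, adjusted p = 0.037), and by 0.93 and 2.04 with each knockdown library left out in turn. That call was lost with 8 libraries in 1 fit (adjusted p = 0.33) and with no filter on low values (adjusted p = 0.074). Cox7b2 fell by 1.69 (SE 0.17, adjusted p = 0.0063) on the log2(FPKM + 1) scale, which understates changes of low levels. Cox6b2 changed by -1.52 (SE 0.47, adjusted p = 0.063) and Cox4i2 by -0.97 (SE 0.31, adjusted p = 0.065), which missed the threshold. Both passed it with the length trend removed, at -1.16 (adjusted p = 0.013) and -0.65 (adjusted p = 0.010), with FPKM rescaled to a common sum, with a replicate block, and with each of the 4 libraries left out. They missed it in the other 5 settings run. The partner genes gave values nearer 0: Cox7a2 -0.37, Cox4i1 -0.21, Cox6b1 -0.82, Cox7b -0.83 and Ndufa4 -0.44, none past the threshold.

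Outside these pairs, Cox8c, a testis form of subunit VIII, read 1.56 and 0.900 FPKM after the knockdown and 3.17 and 2.59 in its control. It fell by 0.81 (SE 0.18, adjusted p = 0.028), which was lost with the length trend removed (-0.44, adjusted p = 0.35), with no filter on low values (adjusted p = 0.057) and with a common sum (adjusted p = 0.091). Atp5s read 1.18 and 2.39 FPKM after the knockdown and 8.54 and 7.44 in its control, and fell by 1.72 (SE 0.24, adjusted p = 0.0096). Ndufs1, the largest subunit of the NADH-oxidising arm of complex I and one of its iron-sulfur proteins, read 52.8 and 48.4 FPKM after the knockdown and 37.2 and 37.4 in its control. It rose by 0.43 (SE 0.10, adjusted p = 0.033). This call was lost without either KD_control library (adjusted p = 0.41 and 0.40), with 8 libraries in 1 fit (0.13), with a replicate block (0.064) and with a common sum (0.083).

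Ndufs5, a complex I accessory subunit, had the largest rise: 5.36 and 2.12 FPKM in KD_control against 22.3 and 62.6 in Dppa5a_KD (log2 fold change 3.11, SE 0.58, adjusted p = 0.018). Its locus overlaps BC002163 in the tables, which read 170 and 185 in KD_control and 56.3 and 139 in Dppa5a_KD, in the opposite direction. Summed, the pair read 175 and 187 FPKM in KD_control and 78.6 and 201 in Dppa5a_KD, and the groups overlapped. The value of Ndufs5 alone is therefore uncertain. Both symbols had 0 counts in all 6 immunoprecipitation libraries, and for a pair at these levels in the RNA-seq that 0 gives no bound.

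Most of the catalytic core genes had values near 0, and none but Ndufs1 passed the test. Atp5b read 1492 and 1503 FPKM in KD_control and 1087 and 1387 in Dppa5a_KD, lower without overlap. Its log2 value lay between -0.46 and -0.11 over the settings run. Atp5a1, the alpha subunit of ATP synthase, read 688 and 679 FPKM in KD_control and 640 and 690 in Dppa5a_KD (log2 fold change -0.04, SE 0.19). Uqcrc1, a core protein of complex III, read 358 and 351 against 316 and 365 (-0.06, SE 0.17), and Sdha, the flavoprotein of complex II, 147 and 149 against 138 and 132 (-0.14, SE 0.12). Ndufv1 (0.11, SE 0.14), Sdhb (-0.07, SE 0.18) and Uqcrfs1, the Rieske protein (0.01, SE 0.19), lay within 1 SE of 0 as well as Atp5a1 and Uqcrc1. With a library left out, the value of Sdhb ranged from -0.30 to 0.15 and that of Uqcrfs1 from -0.23 to 0.25. Cox4i1 (-0.21, SE 0.38), Cox5a (-0.38, SE 0.34) and Cox5b (-0.22, SE 0.40), from complex IV, had wider errors. By complex, the median log2 fold change was -0.23 in complex I, -0.20 in complex II, -0.30 in complex III, -0.87 in complex IV and -0.29 in complex V. The median FPKM of complex IV was 89.8 in Dppa5a_KD 1 and 179 in Dppa5a_KD 2, against 184 and 176 in KD_control. Its summed FPKM was 1934 and 4930, against 5618 and 5808. The fall in complex IV thus lay mainly in Dppa5a_KD 1.

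**Figure D4:**
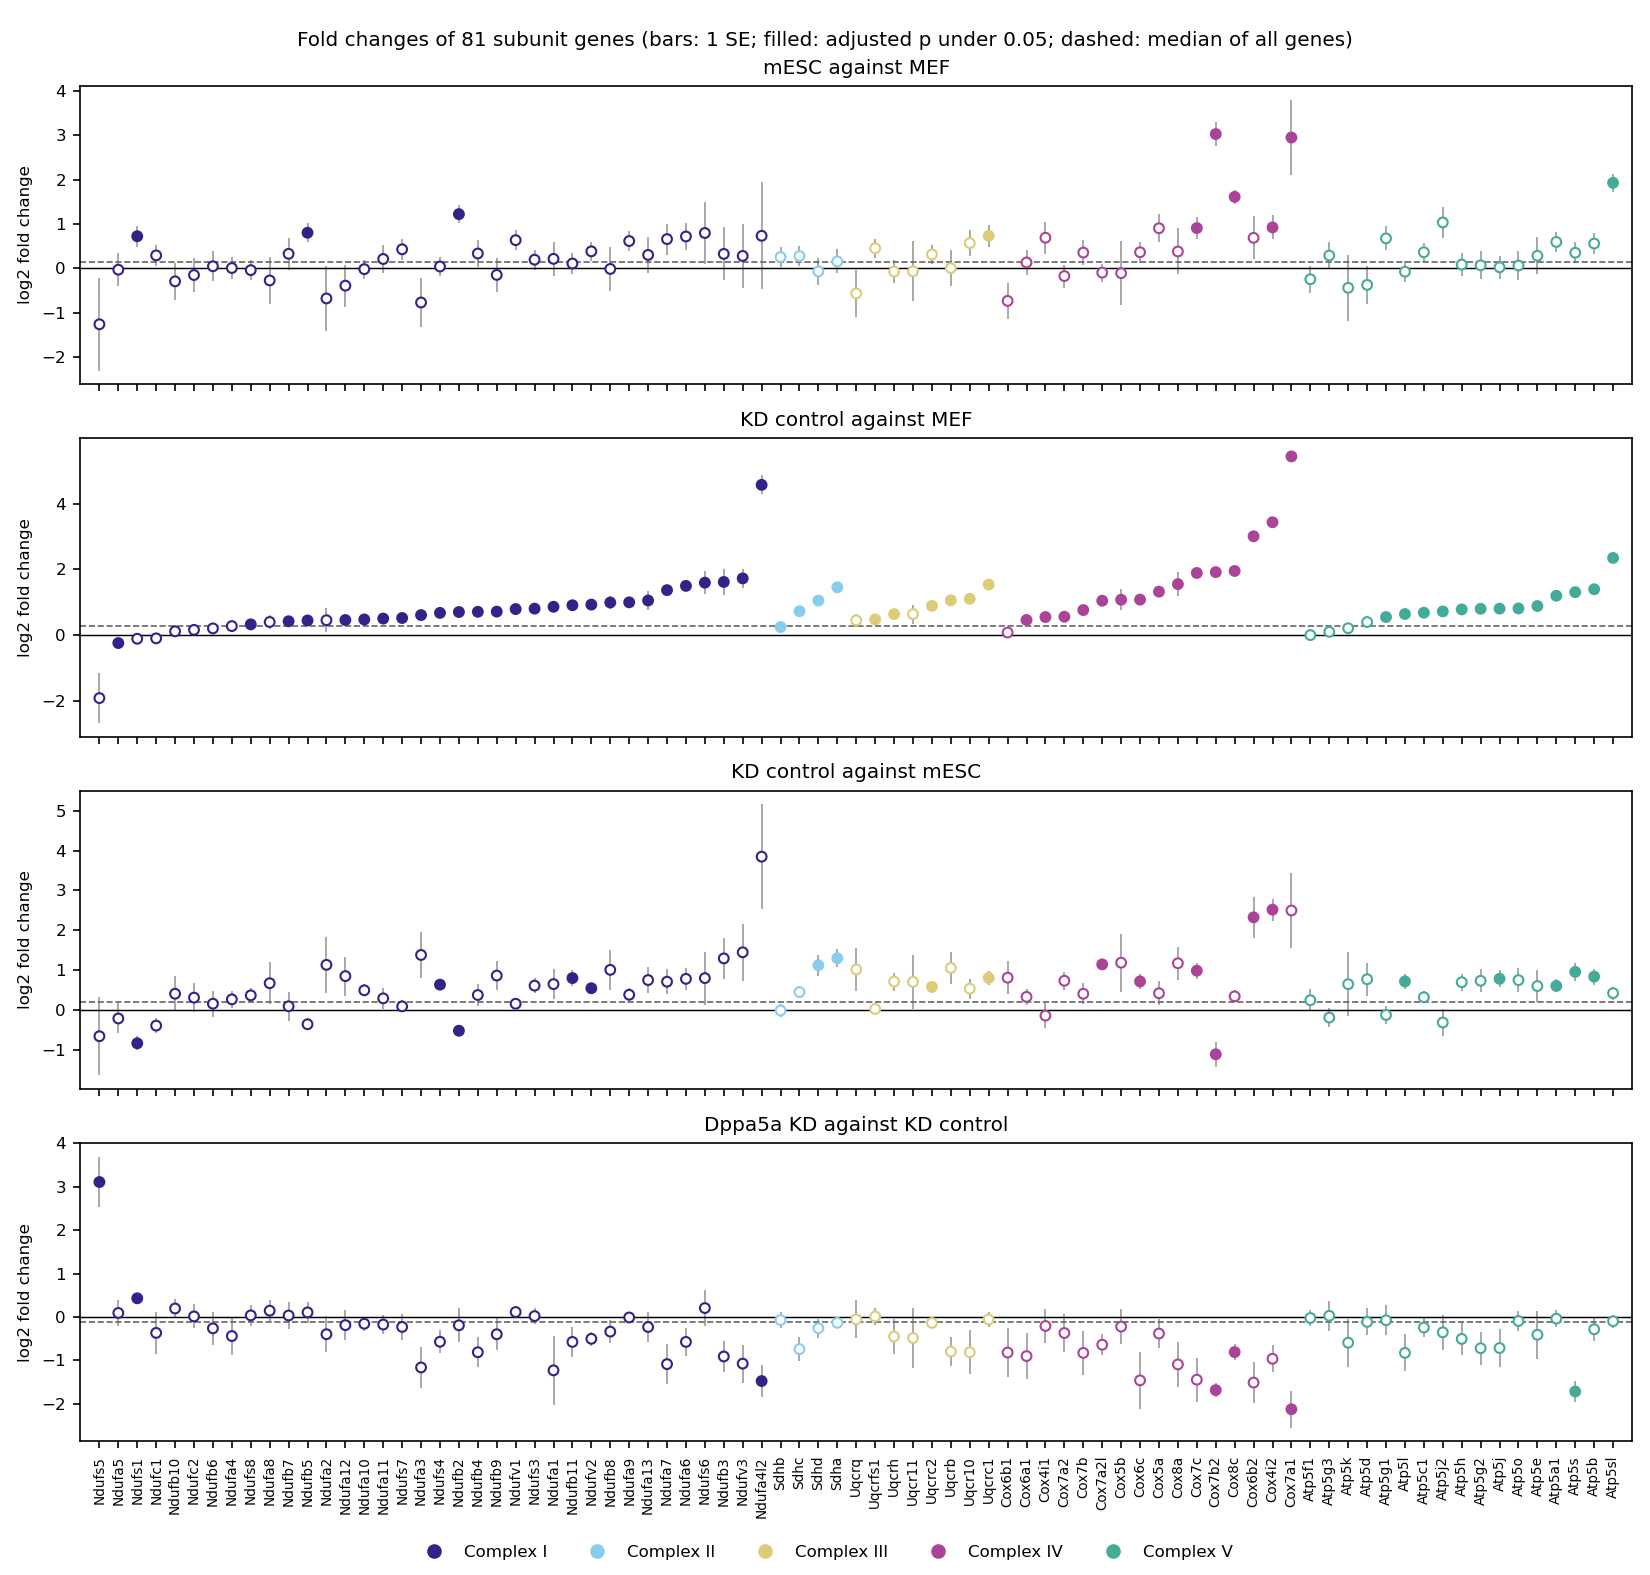
Log2 fold change with 1 SE (vertical axis) of 81 of the 82 tested subunit genes, ordered within each complex by the comparison of KD_control with MEF, in 4 comparisons of 2 libraries against 2; filled points passed an adjusted p under 0.05, and the dashed line is the median of all genes. Nearly all points lie above 0 in KD_control against MEF, and Cox7a1, Ndufa4l2, Cox4i2 and Cox6b2 stand out there.

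Between stem cells labelled mESC and fibroblasts, few of these genes passed the test. The median SE was 0.30 over the subunit genes and 0.23 over all genes. For the subunit genes it was 0.11 in KD_control against MEF. Without overlap between the groups, 32 subunit genes were higher and 2 lower in mESC, where 44.16% and 35.6% of all genes were. Of 82 tested, 10 were higher in mESC and 0 were lower (limma, 12875 genes), where 30.6% of all genes were higher and 26.1% lower. At an unadjusted p under 0.05, 15 were higher and 0 lower, where 62.2% of all genes passed in either direction. The median log2 fold change was 0.28, against 0.15 for all genes; it was 0.53 without mESC 1 and -0.11 without mESC 2. The 10 genes were Ndufb2, Ndufb5, Ndufs1, Uqcrc1, Cox4i2, Cox7a1, Cox7b2, Cox7c, Cox8c and Atp5sl. Without MEF 1, and without MEF 2, 3 genes were higher (8.326% and 8.754% of all genes), and 5 were lower without mESC 2 (27.04% of all genes).

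Atp5sl, an assembly-related gene of complex I despite its symbol, read 22.3 and 27.3 FPKM in mESC and 5.78 and 5.69 in MEF, and was 3.81-fold higher (log2 1.93, SE 0.21, adjusted p = 0.0011). Ndufb2, an accessory subunit of the membrane arm of complex I, read 153 and 152 in mESC and 68.1 and 61.7 in MEF (log2 1.22, SE 0.21, adjusted p = 0.0054). Cox7c, a small complex IV subunit, read 589 and 728 against 380 and 320 (0.91, SE 0.26, adjusted p = 0.029). Cox8c read 2.20 and 1.92 FPKM in mESC and was listed at 0 in MEF. Ndufs1 (76.5 and 59.6 against 36.8 and 44.6) and Uqcrc1 (185 and 222 against 136 and 108) passed narrowly, at adjusted p = 0.048 and 0.049. With the length trend removed, these calls and that of Ndufb5 were lost (adjusted p = 0.11, 0.082 and 0.12). Core genes whose groups did not overlap but missed the threshold included Atp5a1 (457 and 443 against 299 and 296, adjusted p = 0.069) and Ndufv1 (80.5 and 87.5 against 58.8 and 48.9, adjusted p = 0.054).

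Most of these genes read higher in the control stem cells of the knockdown than in fibroblasts as deposited. Of 82 tested, 65 were higher and 1 lower (limma, 13365 genes), against 48.4% of all genes higher and 32.5% lower. At an unadjusted p under 0.05, 66 were higher and 1 lower, where 82.2% of all genes passed in either direction. The part that passed was thus near that of all genes, and only its direction stood apart. All 4 complex II genes, 6 of 8 in complex III, 15 of 16 in complex IV, 13 of 17 in complex V and 27 of 37 in complex I were higher. The median log2 fold change was 0.74, against 0.29 for all genes. With the length trend removed it was 0.18, against 0.01, and 28 genes passed higher and 13 lower (39.91% and 39.99% of all genes). Without KD_control 1 and without KD_control 2, 38 and 34 were higher (33.53% and 33.55% of all genes) and 0 lower (21.26% and 21.06%). The labels do not say whether these 2 groups were grown or sequenced together, and the MEF libraries are also the reference for mESC.

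On the log2(FPKM + 1) scale, Cox7a1 was 43.65-fold higher (log2 5.45, SE 0.14, adjusted p = 1.17e-05), Ndufa4l2 23.9-fold (4.58, SE 0.29), Cox4i2 10.85-fold (3.44, SE 0.11) and Cox6b2 8.06-fold (3.01, SE 0.09), at the levels given above. With the length trend removed these log2 values were 4.82, 3.97, 2.83 and 2.39, all past the threshold. Among core genes, Atp5b was 2.63-fold higher (1492 and 1503 against 570 and 568 FPKM), Atp5a1 2.29-fold (688 and 679 against 299 and 296), Sdha 2.74-fold (147 and 149 against 57.9 and 49.4) and Uqcrc1 2.90-fold (358 and 351 against 136 and 108). All 4 kept an adjusted p under 0.05 with the length trend removed, at log2 0.996, 0.91, 1.247 and 1.08. Ndufs1 was not higher (37.2 and 37.4 against 36.8 and 44.6, adjusted p = 0.40). Ndufa5, an accessory subunit of complex I, was the gene that was lower, 84.7 and 80.3 against 96.3 and 99.8 (log2 -0.25, adjusted p = 0.041). Its call was lost with all 8 RNA-seq libraries in 1 fit and with a replicate block. Sdhb (0.24), Cox4i1 (0.55), Cox6a1 (0.46), Cox7a2 (0.56), Atp5g1 (0.55) and Uqcrfs1 (0.48) were higher as deposited and changed sign with the length trend removed. Of these, Sdhb then passed as lower (-0.33, adjusted p = 0.035), and the other 5 did not pass. Ndufs1 (-0.51, adjusted p = 0.012), Cox6b1 (-0.55, adjusted p = 0.0027) and Atp5g3 (-0.53, adjusted p = 0.0041), not called as deposited, passed as lower in that fit.

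Although both are labelled as wild-type untreated stem cells, KD_control and mESC also differed. Of 82 tested, 17 were higher in KD_control and 3 lower (limma, 12595 genes), against 26.5% and 15.0% of all genes. The median was 0.64, against 0.19. With the length trend removed it was 0.27, against -0.002, and 8 genes passed higher and 8 lower (23.23% and 21.65% of all genes). As deposited, the median lay at 0.27 without mESC 1 and 0.85 without mESC 2. In those fits 51 and 70 genes were higher and 17 and 6 lower (45.2% and 53.3%, and 34.6% and 33.2%, of all genes). Without KD_control 1, and without KD_control 2, 4 genes were higher (11.97% and 11.32% of all genes) and 0 lower (3.93% and 3.473%). Cox4i2 (log2 2.52, SE 0.27, adjusted p = 0.0088) and Cox6b2 (2.32, SE 0.52, adjusted p = 0.031) were higher. Cox7a1 (2.50, SE 0.94, adjusted p = 0.098) and Ndufa4l2 (3.85, SE 1.31, adjusted p = 0.078) missed the threshold. Cox7a2l read 193 and 194 FPKM in KD_control and 86.7 and 87.4 in mESC (1.14, SE 0.14, adjusted p = 0.0098), with close replicates in both groups. Sdha (147 and 149 against 49.1 and 72.6) and Sdhd, a membrane anchor of complex II (167 and 179 against 62.4 and 99.9), were higher by 1.298 and 1.12. Ndufs1 (37.2 and 37.4 against 76.5 and 59.6), Ndufb2 (107 and 104 against 153 and 152) and Cox7b2 were lower, by -0.84, -0.52 and -1.11. Without either KD_control library Cox4i2 and Cox6b2 kept their calls, while Cox7a2l, Sdha, Sdhd, Ndufs1, Ndufb2 and Cox7b2 lost theirs.

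Genes that build and maintain the complexes were described by their counts, to be read against the shares of all genes given above: 48.4% higher and 32.5% lower in KD_control than in MEF, 30.6% and 26.1% in mESC than in MEF, 26.5% and 15.0% in KD_control than in mESC, and 13.6% and 23.8% after the knockdown. Of 48 tested assembly factor genes, 29 were higher and 5 lower in KD_control than in MEF, 12 and 1 in mESC than in MEF, and 13 and 4 in KD_control than in mESC. After the knockdown 3 rose and 3 fell, with a median of -0.10. Nubpl, which delivers iron-sulfur clusters to complex I, was higher in KD_control than in MEF (31.8 and 28.7 against 6.11 and 5.61 FPKM, log2 2.187). Cox17, a copper chaperone of complex IV, was too (257 and 292 against 80.8 and 42.5, log2 2.21), while Cox20, another complex IV assembly gene, was lower (14.3 and 15.5 against 32.6 and 38.4, log2 -1.20). Of 77 mitochondrial ribosomal protein genes, 47 were higher and 5 lower in KD_control than in MEF, 23 and 1 in mESC than in MEF, 4 and 7 in KD_control than in mESC, and 6 and 1 after the knockdown. Of 98 cytosolic ribosomal protein genes, 51 and 7, 9 and 3, and 6 and 5 passed in the first 3 of these, and 5 and 1 of 97 after the knockdown. Of 14 genes of the TCA cycle, which supplies the chain with electrons, the counts were 9 and 2, 3 and 0, 6 and 0, and 0 and 1.

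Between the 2 stem cell groups, regulators of mitochondrial biogenesis had a lower median than the subunit genes as deposited. Of 16 tested, 1 was higher and 4 lower in KD_control than in mESC (26.5% and 15.0% of all genes). Their median was -0.22, where the subunit genes had a median of 0.64. The median of all genes fell from 0.36 in the shortest length class to -0.09 in the longest. With the length trend removed, the subunit genes had a median of 0.27, and that of the regulators was not taken. Nrf1 read 27.7 and 27.1 FPKM in mESC, 19.6 and 18.1 in KD_control, and 13.8 and 14.2 in MEF. Yy1 read 76.6 and 65.6, 40.01 and 39.65, and 46.6 and 41.2 in the same order. Both were lower in KD_control than in mESC (adjusted p = 0.044 and 0.021, limma). After the knockdown, Tfam, which packages and transcribes mitochondrial DNA, rose from 15.5 and 16.4 FPKM in the control to 20.4 and 22.2. Esrra rose from 13.6 and 12.3 to 16.9 and 17.9, Pprc1 from 27.2 and 26.1 to 44.4 and 37.5, and Peo1, the mitochondrial DNA helicase, from 10.1 and 11.2 to 18.8 and 18.9. Tfb1m, a mitochondrial rRNA methyltransferase, fell from 23.1 and 21.7 to 10.9 and 12.2. Of 9 tested carriers and regulators of the chain, 8 were higher in KD_control than in MEF, and Chchd10 was the furthest apart (1123 and 1225 against 7.98 and 5.73 FPKM, log2 7.24). In the immunoprecipitates, 0 of 44 tested assembly factor genes passed in any of the 3 comparisons. Of 77 mitochondrial ribosomal protein genes, 1 was lower in HU_Flag_RIP than in IgG_RIP, and of 91 cytosolic ones 1 was higher and 1 lower in each Flag group against IgG_RIP.

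In the immunoprecipitates, the subunit genes were close to the background of all genes. Deposited counts per library lay between 3472020 and 13033886. The 84 genes took 0.254% and 0.301% of the IgG_RIP counts, 0.171% and 0.147% of the Flag_RIP counts, and 0.151% and 0.139% of the HU_Flag_RIP counts. Outside the 4 abundant RNAs Rn45s, Rmrp, Rpph1 and Lars2 these shares were 1.26% and 1.33%, 1.49% and 1.249%, and 1.40% and 1.255%, and the groups overlapped. Of the 77 genes with enough counts, 0 were higher and 1 lower in Flag_RIP than in IgG_RIP (edgeR quasi-likelihood test, 10473 genes; 1.16% of all genes higher and 1.16% lower). At an unadjusted p under 0.05, 3 were higher and 2 lower, where 15.34% of all genes passed in either direction. DESeq2 gave 0 higher and 1 lower (0.8463% and 1.041% of all genes). In HU_Flag_RIP against IgG_RIP, 1 was higher and 1 lower (1.44% and 1.42% of all genes). Between HU_Flag_RIP and Flag_RIP, 0 passed in either direction (0.143% higher and 0.468% lower), with Cox6b2 higher and Ndufs1 lower (-1.08) at an unadjusted p under 0.05 in edgeR, where 3.963% of all genes passed. DESeq2 called 0 of them (0.1218% of all genes higher and 0.3227% lower). Both Flag groups were compared with the same IgG libraries.

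Sdhd had 167 and 245 counts with IgG, 162 and 118 with Flag, and 120 and 72 with Flag under HU. Scaled by TMM these were 33.3 and 41.5, 15.8 and 14.7, and 15.9 and 11.8 CPM, and both Flag groups lay below IgG_RIP. It was lower by -1.29 on the log2 scale in Flag_RIP (SE 0.34, adjusted p = 0.047, edgeR) and by -1.42 in HU_Flag_RIP (SE 0.34, adjusted p = 0.027). The first call was lost without any 1 of the 4 libraries compared, at adjusted p = 0.14 to 0.32, and with the 10 most abundant genes left out (adjusted p = 0.054). The second was lost without HU_Flag_RIP 2, IgG_RIP 1 or IgG_RIP 2, at adjusted p = 0.13 to 0.25.

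Cox6b2 had 11 and 45 counts with IgG, 71 and 137 with Flag, and 77 and 290 with Flag under HU, which are 2.1902 and 7.62, 6.90 and 17.1, and 10.2 and 47.6 CPM. Replicate 2 was the higher in each of the 3 groups. It was 5.77-fold higher in HU_Flag_RIP than in IgG_RIP (log2 2.53, SE 0.64, adjusted p = 0.035), and its log2 value in Flag_RIP against IgG_RIP was 1.26 (SE 0.63, adjusted p = 0.36). DESeq2 gave an adjusted p of 0.22 for the first, and without HU_Flag_RIP 2 the log2 value was 1.04 (adjusted p = 0.46). The call was also lost without IgG_RIP 1 (1.91, adjusted p = 0.33), without IgG_RIP 2 (3.68, adjusted p = 0.11) and with library size alone (1.61, adjusted p = 0.076). With the replicate number as a block, the value in Flag_RIP was 1.41 (adjusted p = 0.037). Against Flag_RIP, HU_Flag_RIP differed by 1.27 (SE 0.58, adjusted p = 1, unadjusted p = 0.042).

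The genes that were not called lay between -0.79 and 1.68 in Flag_RIP against IgG_RIP, and the highest was Ndufb3 with 12 and 13 counts in IgG_RIP and 71 and 63 in Flag_RIP (adjusted p = 0.12). Cox7a1 had 10 and 20, 30 and 24, and 16 and 16 counts, and Ndufa4l2 4 and 2, 13 and 10, and 17 and 21, with log2 values of 0.13 (SE 0.73) and 1.15 (SE 1.08) in Flag_RIP against IgG_RIP, so a difference within these errors was not detectable at this depth. Cox7b2 had at most 2 counts in any library. Cox6a2 and Cox8b had 0 counts in all 6 libraries, which allows up to 3 counts, or 0.230 to 0.864 CPM, by counting error alone. The scaling mattered to the direction of the group: TMM factors were 1.45 and 1.60 in IgG_RIP and 0.782 to 0.846 in the Flag groups. With library size alone, the median log2 value of the subunit genes went from 0.07 to -0.84 in Flag_RIP and from -0.09 to -1.02 in HU_Flag_RIP, beside -0.87 and -0.88 for all genes. Then 23 and 37 of the genes passed lower, where 21.14% and 24.99% of all genes did.

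**Figure D5:**
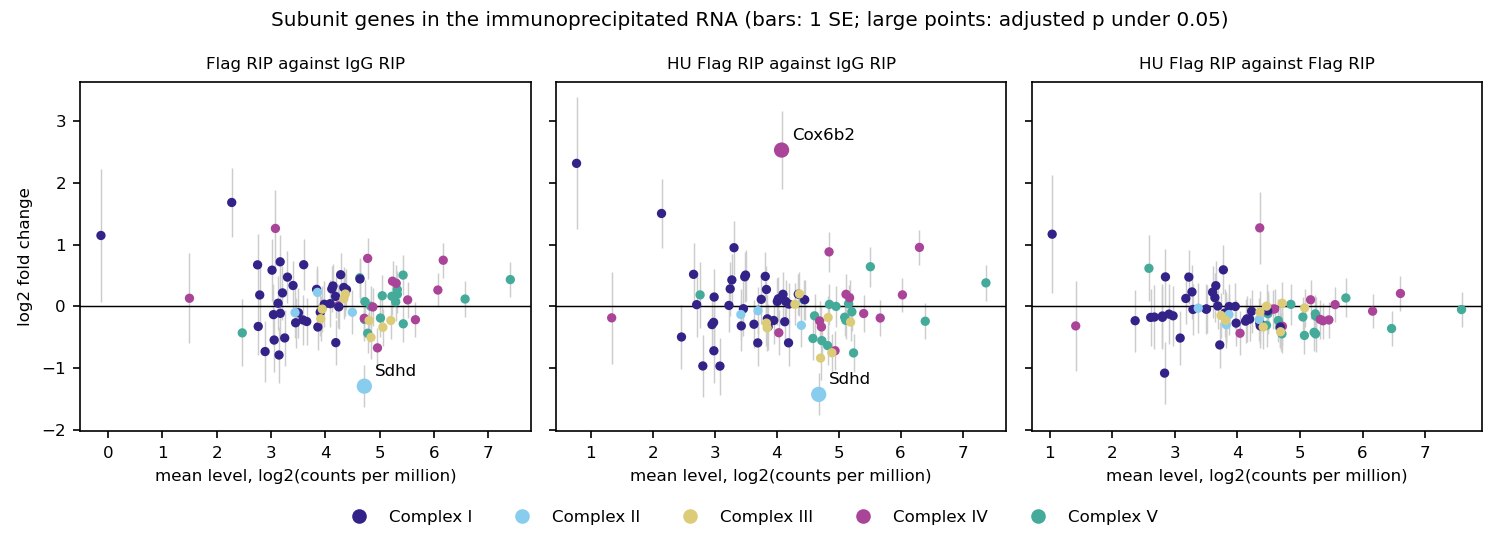
Log2 fold change with 1 SE (vertical axis) against mean level (log2 CPM, horizontal axis) of the 77 tested subunit genes in 3 comparisons of immunoprecipitates, coloured by complex; large labelled points passed an adjusted p under 0.05. Sdhd lies below IgG in both Flag groups, Cox6b2 lies above it in HU_Flag_RIP, and the rest scatter around 0.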

How the data were processed

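RNA was extracted with Trizol and libraries made with an NEBNext Ultra RNA kit, per the labels' protocols. Build mm10, HTSeq 0.6.1, Cuffdiff 2.1.1, Cufflinks 2.1.1, TopHat2 2.0.8 and CASAVA 2.19 are listed without roles, per the submitters' processing notes. Whether counting used strand is not stated. The authors deposited FPKM with confidence bounds for 8 RNA-seq libraries, per the file headers, and raw read counts per symbol for 6 immunoprecipitation libraries. FPKM were summed over the loci of a symbol. Left out were 27 rows of the counts that read as dates and 1 failed gene of the FPKM. Cufflinks-style locus starts are 0-based and were raised by 1.

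FPKM were tested with limma 3.58.1 (limma-trend) on log2(FPKM + 1), 2 groups to a fit, keeping a gene if 1 of the groups averaged 1 FPKM or more. A fold change on that scale understates the change of low genes. Counts were tested with the edgeR 4.0.16 quasi-likelihood test, TMM and filterByExpr, with 6 libraries in 1 fit, and again with DESeq2 1.42.0. Adjusted p-values are Benjamini-Hochberg values over all genes, called under 0.05. Effective fragments implied by the confidence bounds lay between 18290454 and 25270455 per RNA-seq library. The fits were tested on simulated data. The members and lists were chosen with earlier results of these data known.

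Genes named were up to 3 called per complex and direction with the greatest change and no overlap between groups, 12 core subunits, the paralogue sets, and genes listed at 0 in a group. The genes of the pathway lists, Cox7c, BC002163, Shmt2, Bcl2l1 and the marker genes were picked after their values were seen. Alternatives were other scalings, filters, pseudocount 0.1, sets of libraries, removal of the length trend, a replicate block and each library left out. A crossed block was added after seeing the data. The values of 1 subunit gene are not reported here, though it is included in the counts and medians.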

Additional observations from a re-analysis of the deposited data

How the results depend on the processing

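The counts of called genes moved under several settings; shares of all genes stand in brackets. With each library left out in turn, so that 1 library of a group is assumed to vary like the others, the number of subunit genes higher and lower ranged from 1 to 36 and 9 to 75 in Dppa5a_KD against KD_control (5.072% to 30.2% and 14.46% to 46.11%), 34 to 73 and 0 to 5 in KD_control against MEF (33.53% to 52.4% and 21.06% to 36.03%), 4 to 70 and 0 to 17 in KD_control against mESC (11.32% to 53.32% and 3.473% to 34.64%), 3 to 16 and 0 to 5 in mESC against MEF (8.326% to 29.12% and 13.71% to 27.04%), and 0 to 2 and 0 to 1 in HU_Flag_RIP against IgG_RIP (0.08753% to 2.263% and 0.1138% to 2.335%); in Flag_RIP against IgG_RIP 0 to 1 were lower (0.1229% to 1.787%). With the length trend removed, the counts were 12 and 15 in the knockdown (26.18% and 25.91%), 28 and 13 in KD_control against MEF (39.91% and 39.99%), 8 and 8 in KD_control against mESC (23.23% and 21.65%), and 2 lower in mESC against MEF (29.58%). With 8 RNA-seq libraries in 1 fit, 0 were higher in the knockdown (7.874%), and 32 higher and 0 lower in KD_control against MEF (41.2% and 27.85%). With no filter on low values, 5 were higher in mESC against MEF (22.1%), 3 lower in the knockdown (16.52%) and 7 higher in KD_control against mESC (18.47%), and with a mean of at least 5 FPKM 3 were lower in the knockdown (18.87%). Rescaling to a common sum left 1 higher in the knockdown (10.17%). For counts, library size alone gave 23 lower in Flag_RIP (21.14%) and 37 lower and 0 higher in HU_Flag_RIP (24.99% and 0.8784%), no filter gave 2 higher in HU_Flag_RIP (1.693%), and leaving out the 10 most abundant genes gave 0 lower in Flag_RIP (1.137%). Median-ratio scaling moved the median of all genes from 0.15 to -0.02 in mESC against MEF, from 0.29 to 0.08 in KD_control against MEF, and from 0.19 to 0.08 in KD_control against mESC, and a common sum moved the last 2 to 0.11 and 0.02 and that of the knockdown from -0.11 to 0.02. Beyond these constructions the cause was not tested.

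Replicate numbers did not pair the libraries by any label. The correlation of same-numbered deviations was -0.54 in mESC against MEF, 0.01 in the knockdown, -0.09 in KD_control against MEF, 0.06 in KD_control against mESC, -0.01 and -0.03 in the 2 comparisons with IgG, and 0.36 between the Flag groups. With the replicate block, 6 were higher and 1 lower in mESC against MEF (25.82% and 23.95%), 1 higher and 23 lower in the knockdown (15.07% and 27.83%), 27 higher in KD_control against mESC (30.08%), 1 higher in Flag_RIP (2.253%) and 2 higher in HU_Flag_RIP (2.779%) against IgG_RIP. The crossed replicate block gave 21 higher in mESC against MEF (38.16%).

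Some named genes changed sign in 1 setting, on passing the threshold in that setting or in the reported fit. With the length trend removed, KD_control against MEF gave -0.0735 for Atp5g1, -0.53 for Atp5g3, -0.0829 for Cox4i1, -0.17 for Cox6a1, -0.55 for Cox6b1, -0.0514 for Cox7a2, -0.33 for Sdhb and -0.053 for Uqcrfs1. Library size alone gave -0.89 for Atp5g3 in HU_Flag_RIP against IgG_RIP. In the knockdown, values with a library left out ranged from -0.56 to 0.40 for Atp5g1, -0.46 to 0.51 for Atp5g3, -0.74 to 0.32 for Cox4i1, -0.81 to 0.36 for Cox5b, -1.02 to 0.28 for Cox7a2, -1.08 to 0.19 for Ndufa4, -0.30 to 0.15 for Sdhb and -0.23 to 0.25 for Uqcrfs1. In KD_control against mESC they ranged from -0.55 to 0.26 for Cox4i1 and -0.15 to 0.12 for Sdhb. Depth limits the immunoprecipitates, where the median gene of the group had 82.5 to 177 counts. Across the other settings and comparisons, 119 counts of called subunit genes equalled the reported count or stayed within 1.5 times of it, and 63 did not.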
